A study of Mus musculus with 16 samples.

Results

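CD4+ T cells from the spleens of mice lacking the kinase IKK2 in T cells were compared with those of mice carrying the Cre recombinase alone, all without kidney disease. The comparison holds 6 of the 16 arrays of the series, 3 of IKK2 knockout mice and 3 of Cre controls, chosen by genotype and treatment as labelled and by no measured value. All donors were male and 8 to 10 weeks old, and none of these 6 had been given nephrotoxic serum. Both groups carried a Cre transgene driven by the Cd4 promoter, and the knockout group also carried floxed IKK2 alleles (strain label IKK2fl/fl). The labels do not say whether the Cre controls had a floxed allele. The Cd4 promoter is already active in immature thymocytes, so that deletion reaches other T cells besides the mature CD4+ ones. Further arrays came from Cre control (3) and IKK2 knockout (3) mice sampled 10 days after nephrotoxic serum at 2.5 mg/g, and from NEMO knockout mice (2 in each condition). CD4+ cells were enriched with a kit and then sorted, RNA was prepared with 1 of 2 kits depending on cell number, and no label ties a kit to an array. Whether each array stands for its own animal is not stated, so a p value here covers the spread among these samples alone, part of which may be technical.

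IKK2, encoded by Ikbkb, is the catalytic subunit that phosphorylates the IkB inhibitors in the canonical NF-kB pathway. It works in a complex with IKK1, encoded by Chuk, and with the regulatory subunit NEMO, encoded by Ikbkg. In T cells the pathway is switched on by the antigen receptor and costimulation through an adaptor complex that includes BCL10 and MALT1, and its best known outputs are genes for IL-2, the IL-2 receptor, lymphotoxins and its own inhibitors. NF-kB signalling is also known to be needed for the development or upkeep of regulatory T cells and of innate-like T cells such as natural killer T cells.

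Transcript levels are given on the log2 scale as processed spot intensity relative to the 75th percentile of the same array, so that a probe at 0 is as bright as that percentile, and levels of different genes are not comparable. Differences are IKK2 knockout minus Cre control on that scale, with the standard error (SE) of a limma model over all 16 arrays. "Passed" means an adjusted p under 0.05 over the 14675 genes tested. On the 6 arrays 50.9% to 57.2% of spots were well above background. Across genes, arrays correlated at 0.989 to 0.993 within the controls, at 0.984 to 0.989 within the knockout and at 0.974 to 0.981 between the groups. The controls and knockout replicate 3 were on slide 2 and knockout replicates 1 and 2 on slide 1, where the net signal of the negative controls was 42.1 to 43.8 against 19.5 to 22.4 on slide 2. A difference computed with slide as a block is therefore that of knockout replicate 3 from the controls and rests on 1 knockout array.

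In the knockout 1473 genes were higher and 664 lower (10.0% and 4.52% of the genes tested, 14.6% together), and 614 and 103 of these differed at least 2-fold. The median difference was 0.77 among the higher genes, -0.51 among the lower ones and 0.05 over all genes. The 3 knockout arrays lay apart from the 3 controls for 2103 of the 2137 genes, a separation that held for 19.0% (higher) and 11.1% (lower) of all genes tested. With slide as a block 752 genes passed (5.12%, 3.8% higher and 1.32% lower), of which 597 were among the 2137, with 32.1% of the higher and 18.7% of the lower genes still passing. Without any 1 array the count lay between 1264 and 2324, at 1339 without Cre control replicate 2 and 1264 without replicate 3. A fit of only the arrays compared gave 920 genes, and normexp background correction gave 1361 and made 52 of the 123 named genes that passed smaller by over 1.5 times.

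The transcript of the targeted kinase gene did not pass the test. Ikbkb read 3.29, 3.31 and 3.30 in controls and 3.31, 2.88 and 2.99 in the knockout, so that knockout replicate 1 was at the level of the controls and the difference of -0.24 (SE 0.11, adjusted p = 0.162) did not pass. No source used here places the probe inside the floxed part of the gene, so it checks nothing about the deletion. Chuk, the second catalytic subunit, read 4.05, 3.87 and 3.92 against 4.03, 4.08 and 3.98, overlapping ranges. Ikbkg, the regulatory subunit, read -0.85, -0.74 and -0.52 in controls and -0.01, -0.00 and -0.06 in the knockout, with every knockout array above every control. It rose by 0.68 (SE 0.10, adjusted p = 0.00153), by 0.64 with slide as a block (adjusted p = 0.0277) and by 0.34 on its second probe. The other 7 kinases and adaptors of the list did not pass, among them Map3k14, the kinase NIK of the noncanonical pathway (0.33, SE 0.10, adjusted p = 0.0571), and the IKK-related kinases Tbk1 (-0.06, SE 0.08) and Ikbke (-0.12, SE 0.11). The median of the 10 was -0.09, and the 1 that rose made 10.0% of the list, beside 10.0% of all genes tested.

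The labelled cell type was checked against its markers first. Cd4 itself, named because it defines the cells, read 6.19, 6.02 and 5.89 on control replicates 1 to 3 and 6.19, 6.03 and 5.96 on knockout replicates 1 to 3. None of 14 T cell markers passed in limma (1 had an unadjusted p under 0.05), and their median difference was 0.02. The CD3 chain Cd3e differed by -0.12 (SE 0.09). For 12 of the 14 the arrays of the groups overlapped. Of all genes tested 19.0% lay apart as higher and 11.1% as lower.

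Markers of other spleen cells were higher in the knockout. Among 18 markers of B cells 13 rose (median 2.15), of 10 MHC class II genes 8 rose (3.07), of 17 macrophage markers 16 rose (2.56), and of 9 dendritic cell markers 4 rose (2.66). These shares were 72.2%, 80.0%, 94.1% and 44.4%, beside 10.0% of all genes tested. Cd79b, a signalling chain of the B cell receptor, read 0.36, 0.27 and -0.14 in controls and 3.13, 2.49 and 2.54 in the knockout, a rise of 2.56 (SE 0.25, adjusted p = 0.00025). Ms4a1, which encodes the B cell surface protein CD20, rose by 3.70 (SE 0.51). Adgre1, the macrophage antigen F4/80, read -4.47, -3.76 and -6.47 in controls and -1.04, -0.15 and -0.65 in the knockout. The lysozyme gene Lyz2 rose by 3.37 (SE 0.54) and Cd74, the class II invariant chain, by 3.101 (SE 0.58). In each case the lowest knockout array was above the highest control array.

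These lists separated the groups as a whole. Relative to the control mean, the B cell list averaged 2.05, 1.73 and 1.75 on knockout replicates 1 to 3 and -0.11 to 0.07 on controls, and the macrophage list 2.38, 3.11 and 2.51 against -0.40 to 0.53. Of the 17 macrophage markers 13 were well above background on every knockout array and 5 on every control array, and 5 were above background on no control array, whereas 14 of the 18 B cell markers were above background on every control array. In nephritic mice the B cell list averaged 1.53 to 1.99 on knockout and 0.44 to 1.38 on control arrays, and the macrophage list 1.66 to 1.95 and -0.08 to 1.96, so that there the macrophage ranges overlapped. With slide as a block 6 B cell, 1 MHC class II, 2 macrophage and no dendritic cell markers rose in limma (6 of the dendritic cell markers at an unadjusted p under 0.05). MHC class II genes that rose numbered 4 without Cre control replicate 1 or 3. Normexp lowered the B cell median to 0.67, that of MHC class II to 1.86 and that of macrophages to 1.30. When the mean of the B cell markers entered the model no gene passed in limma (1176 had an unadjusted p under 0.05, against 4404 without it). That mean separates the groups almost as the genotype does, so this fit cannot tell the 2 apart. In a bulk sample, more cells of a type and more RNA per cell cannot be told apart, and the part of these markers in the differences below was not tested.

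Other marker lists moved less evenly. Of 13 CD8 and NK cell markers 6 rose and 2 fell (46.2% and 15.4%, beside 10.0% and 4.52% of all genes tested, median 0.28). The 2 that fell were the chemokine gene Xcl1 and the NK receptor gene Klrb1c, whose values are given below with the innate-like T cell genes. Gzmb, the protease granzyme B, rose by 2.04 (SE 0.27), the NK cell receptor gene Ncr1 by 2.58 (SE 0.41) and the lectin-like receptor gene Klre1 by 1.55 (SE 0.27), while Cd8a was above background on 2 knockout arrays and no control array and was at least 1.74-fold higher, lost without any 1 array. Ncr1, Klre1 and Cd8a did not pass with slide as a block (adjusted p = 0.0558, 0.0926 and 0.119). Of 12 neutrophil markers 2 rose and 2 fell (0.56): the calprotectin gene S100a9 rose by 3.78 (SE 1.10), a call kept only without Cre control replicate 2 and lost with slide as a block (adjusted p = 0.228) and with normexp (0.0643), and the matrix protease gene Mmp9 was at least 5.68-fold lower and above background on no knockout array. Plasma cell (2 of 6 rose, median 1.30), platelet (1 of 9 rose and 1 fell, 0.998) and erythroid markers (0 of 10 passed in limma, 3 at an unadjusted p under 0.05, median 1.11) completed the set. The share that rose was 33.3% of plasma cell, 16.7% of neutrophil and 11.1% of platelet markers, beside 10.0% of all genes tested. The share that fell was 16.7% of neutrophil and 11.1% of platelet markers, beside 4.52%.

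**Figure D1:**
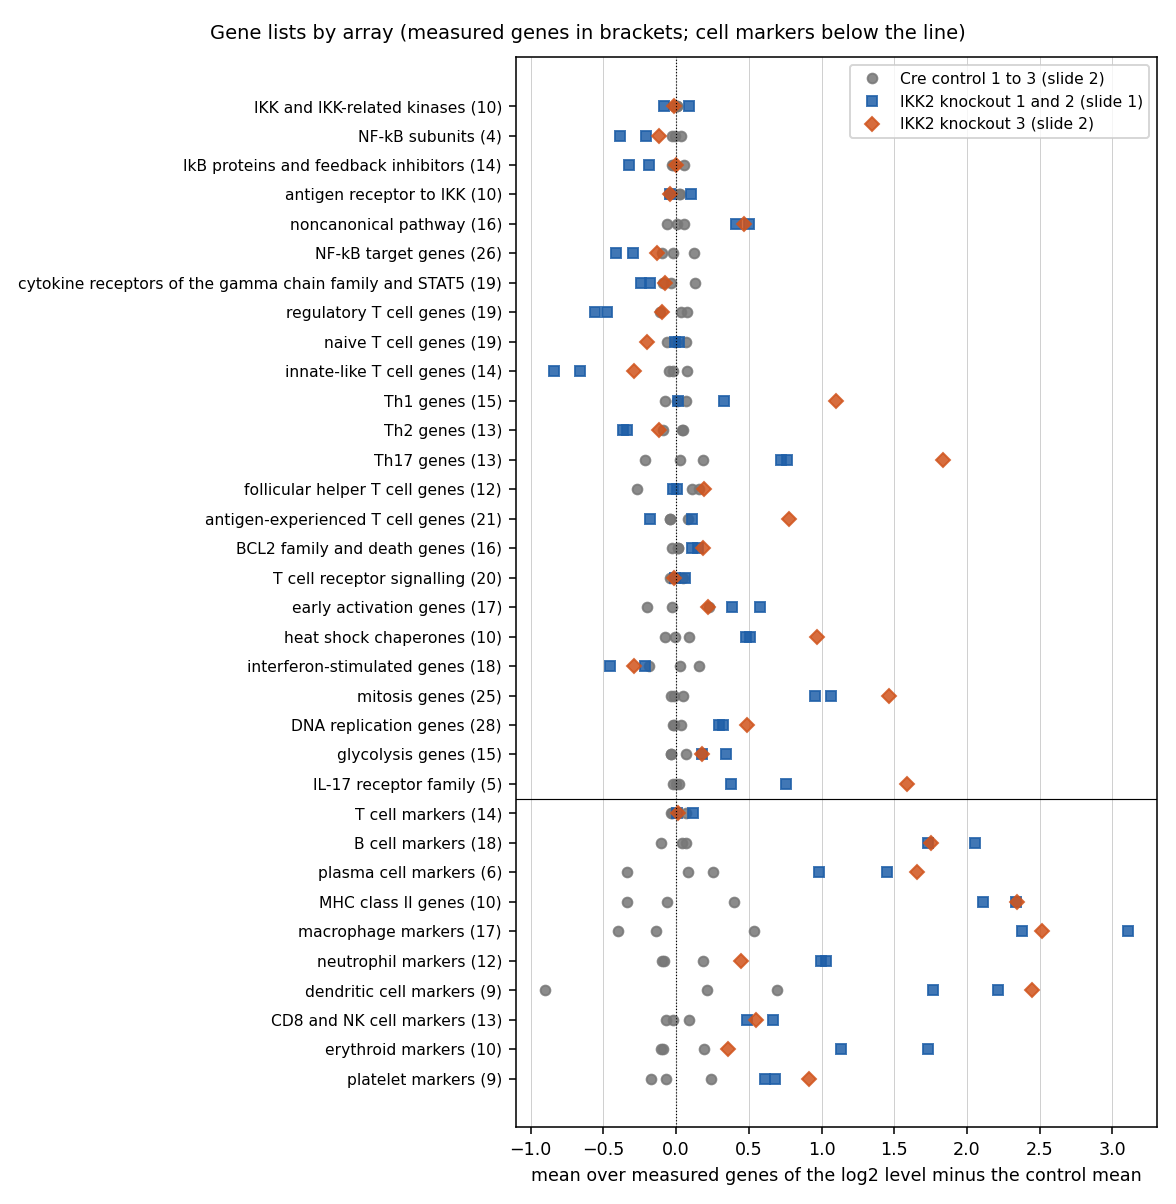
Mean level of each gene list on each array relative to the mean of the 3 Cre control arrays (x axis, log2 units), with 1 line per list and the lists of cell type markers below the dividing line. Grey circles are controls, blue squares knockout replicates 1 and 2 (slide 1) and the orange diamond knockout replicate 3 (slide 2). The B cell list stands at 1.73 to 2.05 and the mitosis list at 0.96 to 1.46 on the knockout arrays, while the T cell list stays at 0.01 to 0.11.

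Upstream of the kinase 1 of 10 genes that connect the antigen receptor to IKK rose and none fell. That was 10.0% higher and 0% lower, beside 10.0% and 4.52% of all genes tested. Ube2n, which encodes the ubiquitin-conjugating enzyme UBC13, rose by 0.26 (SE 0.08, adjusted p = 0.0398). Its call was lost with slide as a block and without 5 of the 6 arrays in turn (all but Cre control replicate 3). The adaptor gene Bcl10 differed by 0.11 (SE 0.09) and the paracaspase gene Malt1 by -0.20 (SE 0.08), neither of which passed. Of 20 T cell receptor signalling genes none passed in limma (3 at an unadjusted p under 0.05, median -0.02).

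Among 14 IkB proteins and feedback inhibitors of NF-kB 3 fell (21.4%, beside 4.52% of all genes tested) and none rose. Nfkbia, which encodes IkB alpha, the substrate of IKK2 and a direct NF-kB target, read 5.94, 5.96 and 5.97 in controls and 5.04, 5.19 and 5.23 in the knockout. Controls lay within 0.03 of each other and all 3 knockout arrays were well below them, a fall of 0.80 (SE 0.07, adjusted p = 0.000246) that was 0.72 with slide as a block (adjusted p = 0.00514). Tnip1, which encodes the A20-binding protein ABIN1, read 5.80, 5.73 and 5.58 against 5.24, 4.99 and 5.25, again without overlap (difference -0.54, SE 0.09, adjusted p = 0.00371, and 0.0761 with slide as a block). Tnfaip3, the deubiquitinase A20, read 2.89, 3.11 and 2.87 in controls and 2.05, 2.03 and 2.60 in the knockout. Replicate 3 lay closest to the controls, and the fall of 0.73 (SE 0.16, adjusted p = 0.0133) went to -0.36 with slide as a block (adjusted p = 0.293) and was not called without Cre control replicate 2. The list had a median of -0.10, which was 0.01 with slide as a block. The deubiquitinase gene Cyld (-0.32, SE 0.13) and the nuclear IkB proteins Bcl3 (0.33, SE 0.16) and Nfkbiz (0.15, SE 0.18) did not pass.

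Of 4 measured NF-kB subunits, Relb fell (25.0%, beside 4.52% of all genes tested) and the others did not pass. Relb, the partner of p52 in the noncanonical pathway, read 3.02, 3.07 and 2.87 in controls and 2.36, 2.44 and 2.63 in the knockout, without overlap and with replicate 3 nearest the controls. The fall of 0.51 (SE 0.12, adjusted p = 0.0191) did not pass with slide as a block (-0.35, adjusted p = 0.27), nor without Cre control replicate 1 or 2 or knockout replicate 1 or 2. Nfkb2, the precursor of p52, read 1.70, 1.74 and 1.72 against 1.37, 1.12 and 1.47, lower on all 3 knockout arrays, at an adjusted p of 0.055. Rela differed by -0.15 (SE 0.08) and Nfkb1 by 0.12 (SE 0.11), which had the opposite sign on another probe. Rel was not among the genes tested.

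Of 26 measured NF-kB target genes 9 fell (34.6%, beside 4.52% of all genes tested), none rose and 17 did not pass, with a list median of -0.13. The 9 were Nfkbia, Tnfaip3, Il2, Il2ra, Lta, Ltb, Tnfrsf4, Relb and Il7r, of which Lta and Ltb were named after their values were seen. Promoters of the 4 that matched the kB consensus, the DNA element that NF-kB dimers bind, are shown because these genes fell together. They are the 250 bases before the start of transcription from RefSeq (mouse build GRCm38.p6), 5′ to 3′ on the gene's strand, with the matches on either strand in capitals.
Nfkbia promoter, chr12:55492648-55492897, minus strand: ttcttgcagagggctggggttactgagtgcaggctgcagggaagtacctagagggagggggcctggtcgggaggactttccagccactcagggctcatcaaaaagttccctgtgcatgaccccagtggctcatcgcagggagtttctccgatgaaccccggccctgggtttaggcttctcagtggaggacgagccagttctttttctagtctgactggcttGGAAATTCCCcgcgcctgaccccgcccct
Tnfaip3 promoter, chr10:19015411-19015660, minus strand: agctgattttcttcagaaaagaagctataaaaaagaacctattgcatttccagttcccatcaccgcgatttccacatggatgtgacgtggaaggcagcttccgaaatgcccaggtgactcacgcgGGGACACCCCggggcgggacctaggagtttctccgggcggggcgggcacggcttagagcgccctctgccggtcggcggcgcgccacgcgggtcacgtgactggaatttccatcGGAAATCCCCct
Il2ra promoter, chr2:11642542-11642791, plus strand: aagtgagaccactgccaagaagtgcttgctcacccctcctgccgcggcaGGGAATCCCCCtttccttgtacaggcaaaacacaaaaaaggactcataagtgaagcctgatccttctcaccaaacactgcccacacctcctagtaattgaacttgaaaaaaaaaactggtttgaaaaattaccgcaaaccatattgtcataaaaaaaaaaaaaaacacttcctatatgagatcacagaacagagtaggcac
Ltb promoter, chr17:35194257-35194506, plus strand: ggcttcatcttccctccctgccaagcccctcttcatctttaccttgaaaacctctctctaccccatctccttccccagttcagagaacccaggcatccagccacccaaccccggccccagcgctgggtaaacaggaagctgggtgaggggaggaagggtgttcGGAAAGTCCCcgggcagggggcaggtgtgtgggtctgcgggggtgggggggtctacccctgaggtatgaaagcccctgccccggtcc

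The first matched base lies 29 bases before the annotated start in Nfkbia, 125 in Tnfaip3, 201 in Il2ra and 87 in Ltb. Tnfaip3 had 2 separate matches, and the 2 of Il2ra overlap. Of the 9 targets that fell 8 had a window of 250 bases before to 50 after the start, and 4 of these held a match, as did 9 of the 22 measured targets with a window. A match was present in 8.46% of all 32851 windows, in 11.8% of the genes tested, in 13.2% of the lower and in 11.5% of the higher genes. A match shows only that these letters are in the window.

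Cytokine genes were among these targets. Il2, the T cell growth factor, read -1.12, -1.73 and -1.59 in controls and -3.40, -3.29 and -2.75 in the knockout. All knockout arrays were below all controls, a fall of 1.67 (SE 0.29, adjusted p = 0.00406) that was 1.28 with slide as a block (adjusted p = 0.0954) and 0.76 with normexp. Lta, lymphotoxin alpha, read 1.66, 1.59 and 1.59 against 1.24, 0.99 and 1.11, a fall of 0.50 (SE 0.10, adjusted p = 0.00637, and 0.0689 with slide as a block). Its membrane anchor Ltb read 8.25, 8.17 and 8.11 against 7.85, 7.57 and 7.61, a fall of 0.50 (SE 0.10, adjusted p = 0.00756) that still passed with slide as a block (-0.57, adjusted p = 0.0453). Neither gene's groups overlapped. In the authors' own normalised matrix the Ltb difference was -0.22 (adjusted p = 0.177).

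Receptor genes of the same list moved likewise. Il2ra, which encodes CD25 of the IL-2 receptor, read 1.13, 0.77 and 0.88 in controls and -0.78, -0.67 and 0.02 in the knockout. No control fell below 0.77 and no knockout array exceeded 0.02, a fall of 1.40 (SE 0.26, adjusted p = 0.00523), against -0.91 with slide as a block (adjusted p = 0.128). Il7r, the IL-7 receptor that sustains naive and memory T cells, read 5.46, 5.76 and 5.51 against 4.47, 4.09 and 4.35. Here the groups lay about 1 unit apart, with a fall of 1.27 (SE 0.14, adjusted p = 0.000399) that was 1.23 with slide as a block (adjusted p = 0.00957). The costimulatory receptor gene Tnfrsf4, OX40, fell by 0.46 (SE 0.14, adjusted p = 0.0465), but the call was lost without any 1 of the 6 arrays.

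Left-out arrays and slide bore on the target list as a whole. Without 1 array 6 to 9 of the targets fell, and 6 (Nfkbia, Il7r, Il2, Il2ra, Lta and Ltb) passed whichever array was left out. With slide as a block 3 fell, with only the arrays compared 4, and on slide 2 alone none in limma (8 targets at an unadjusted p under 0.05 in either direction). Relative to the control mean it stood at -0.30, -0.41 and -0.13 on the knockout arrays, in order, and at 0.12, -0.10 and -0.02 on controls, so that replicate 3 stood just below the lowest control.

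**Figure D2:**
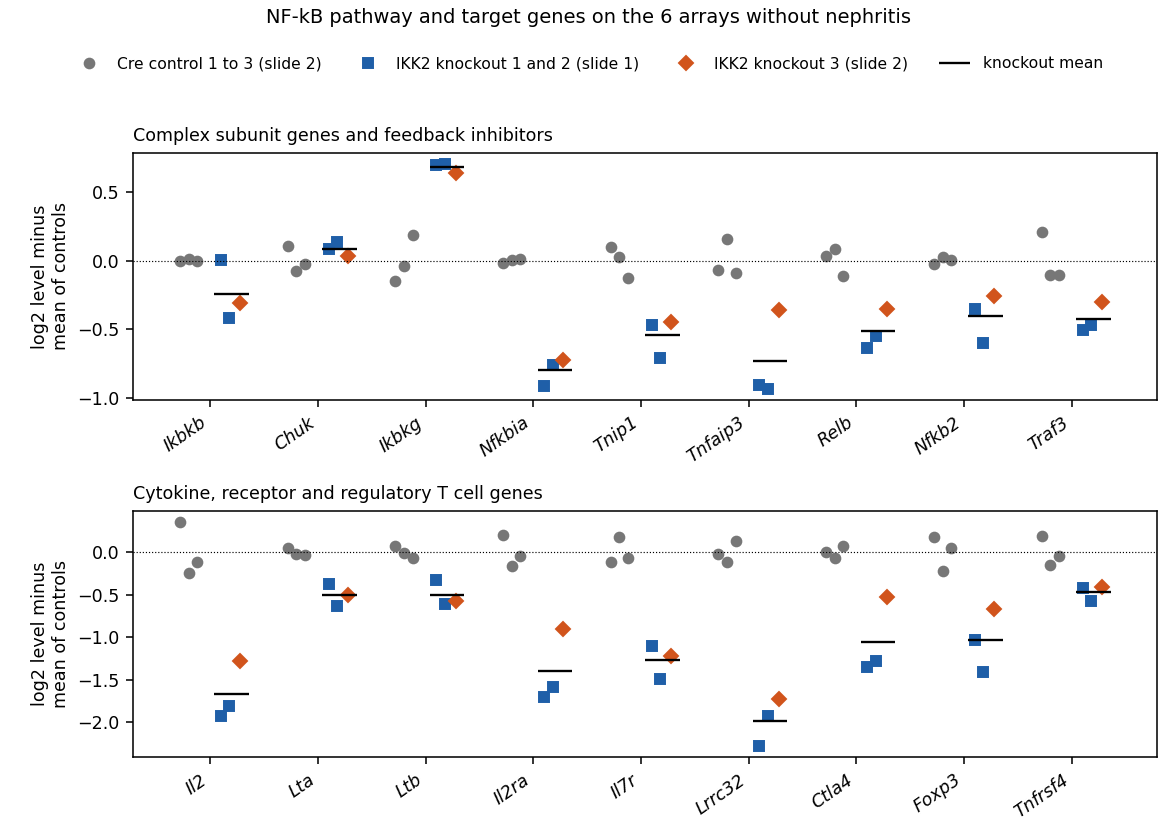
Levels of NF-kB pathway genes (upper panel) and of cytokine, receptor and regulatory T cell genes (lower panel) on each array, as log2 level minus the mean of the 3 Cre controls (y axis). Grey circles are controls, blue squares knockout replicates 1 and 2, the orange diamond knockout replicate 3 and the black line the knockout mean. Nfkbia lies at a mean of -0.80 and Il7r at -1.27, while Ikbkb replicate 1 sits at the control level.

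In the noncanonical pathway 4 of 16 measured genes rose, 3 fell and 9 did not pass. That was 25.0% higher and 18.75% lower, beside 10.0% and 4.52% of all genes tested. The list median of 0.13 turned to -0.00 with slide as a block. Those that fell were Relb, Tnfrsf4 and Traf3, the adaptor that keeps NIK low, which read 5.07, 4.76 and 4.76 in controls and 4.36, 4.40 and 4.56 in the knockout. Traf3 did not overlap between the groups and fell by 0.43 (SE 0.10, adjusted p = 0.0135), but did not pass with slide as a block (-0.30, adjusted p = 0.218). Those that rose were receptors. Tnfrsf13c, the BAFF receptor of B cells, rose by 2.38 (SE 0.31), and Cd40, the receptor of antigen-presenting cells, was at least 10.4-fold higher and above background on no control array. The RANK gene Tnfrsf11a rose by 0.53 (SE 0.13, lost without Cre control replicate 2 or 3 or knockout replicate 2) and the lymphotoxin beta receptor gene Ltbr by 1.62 (SE 0.45), a call lost without any 1 array. Cd40, Tnfrsf11a and Ltbr did not pass with slide as a block (adjusted p = 0.095, 0.162 and 0.0786). B cell and macrophage markers moved with these receptors by the values given above, and their part was not tested.

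Of 19 genes of common gamma chain signalling 3 fell (Il2, Il2ra and Il7r), 2 rose and 14 did not pass (median 0.06). Rises made 10.53% of the list, beside 10.0% of all genes tested, and falls 15.8%, beside 4.52%. Il21r, the IL-21 receptor, read 3.45 to 3.59 in controls and 3.92 to 4.05 in the knockout. That rise of 0.46 (SE 0.08, adjusted p = 0.00371) was without overlap. Il4ra, the IL-4 receptor, rose by 0.69 (SE 0.16, adjusted p = 0.0139), which did not pass without Cre control replicate 2. Both lost their calls with slide as a block (adjusted p = 0.0713 and 0.274).

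Among 19 measured genes of regulatory T cells there were 7 falls and 1 rise (median -0.46). That was 36.8% lower and 5.26% higher, beside 4.52% and 10.0% of all genes tested. Lrrc32, which displays latent TGF-beta on regulatory T cells, read 0.11, 0.01 and 0.26 in controls and -2.16, -1.81 and -1.61 in the knockout. No array came near the other group, a fall of 1.98 (SE 0.34, adjusted p = 0.00406), with -1.73 and an adjusted p of 0.0756 with slide as a block. Foxp3, the lineage factor, read 0.60, 0.20 and 0.47 against -0.61, -0.99 and -0.25, lower on every knockout array by a mean of 1.04 (SE 0.32, adjusted p = 0.0479). The inhibitory receptor gene Ctla4 read -0.89, -0.97 and -0.83 against -2.25, -2.18 and -1.42, with a fall of 1.05 (SE 0.27, adjusted p = 0.0232). Calls for Foxp3 and Ctla4 held only without knockout replicate 3 among the fits that left out 1 array, and were lost with slide as a block (adjusted p = 0.432 and 0.4). Gpr83, an orphan receptor gene of regulatory T cells, went the other way and rose by 1.55 (SE 0.33), though it was above background on only 1 control array. That call was lost with slide as a block (adjusted p = 0.108), with only the arrays compared (0.0676), with normexp (a difference of 0.32, adjusted p = 0.0679) and in the authors' matrix (0.59, adjusted p = 0.0551).

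Replicate 3 differed from the other knockout arrays on this list. The mean of the list was -0.48 and -0.56 on replicates 1 and 2, -0.10 on replicate 3 and -0.11 to 0.08 on controls. The number that fell was 2 without Cre control replicate 1 or 3, 3 without Cre control replicate 2 or knockout replicate 1 or 2, and 8 without knockout replicate 3. With slide as a block none fell in limma (8 at an unadjusted p under 0.05 in either direction) and the median was -0.34.

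Naive T cell genes showed no common direction. Of 19, 1 rose, 3 fell and 15 did not pass (median -0.02). That was 5.26% higher and 15.8% lower, beside 10.0% and 4.52% of all genes tested. Apart from Il7r, the transcription factor gene Foxp1 fell by 0.25 (SE 0.07) and S1pr1, the receptor for exit from lymphoid tissue, by 0.38 (SE 0.11), calls that held only without Cre control replicate 1 (Foxp1) or 2 (S1pr1) among the fits that left out 1 array and were lost with slide as a block. Igfbp4, a binding protein for insulin-like growth factors, read 2.86, 2.91 and 2.83 in controls and 3.89, 3.69 and 3.54 in the knockout, a rise of 0.84 (SE 0.18, adjusted p = 0.0116) without overlap that did not pass with slide as a block (0.67, adjusted p = 0.173). The homing receptor gene Ccr7 differed by -0.00 (SE 0.13).

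Some of the deepest falls were in genes of innate-like T cells. Of 14, 6 fell (42.9%, beside 4.52% of all genes tested), 2 rose and 6 did not pass (median -0.71). The block on slide left 3 falls and a median of -0.16. Zbtb16, which encodes PLZF, the factor that directs natural killer T cell development, read 0.50, -0.02 and 0.21 in controls and -2.73, -2.64 and -2.15 in the knockout. Knockout arrays were at least 2 units below any control, a fall of 2.74 (SE 0.27, adjusted p = 0.00025) that was 2.38 with slide as a block (adjusted p = 0.00754). Il4, a cytokine that natural killer T cells hold as ready transcript, read 0.14, -0.18 and 0.08 against -3.31, -3.56 and -2.97. Its fall of 3.29 (SE 0.34, adjusted p = 0.000332) was 2.97 with slide as a block and 1.92 with normexp. The chemokine gene Xcl1 read 0.80, 0.24 and 0.38 against -1.14, -1.09 and -1.61, a fall of 1.75 (SE 0.28, adjusted p = 0.00273) that was larger on replicate 3 (-2.08 with slide as a block).

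The remaining members of that list were mixed. Il17rb, the IL-25 receptor chain, fell by 0.80 (SE 0.17, adjusted p = 0.00966), a call lost with slide as a block (-0.91, adjusted p = 0.0558). The NK receptor genes Klrb1c (-1.33, SE 0.39) and Cd160 (-0.93, SE 0.29), named after their values were seen, had adjusted p values of 0.0415 and 0.0485 that held under none of the single-array omissions for Klrb1c and only without knockout replicate 3 for Cd160, and neither passed with slide as a block (0.192 and 0.435). Fcer1g, the signalling chain of Fc receptors, which myeloid cells also make, rose by 2.44 (SE 0.39), and Slamf1, a costimulatory receptor gene, rose by 0.85 (SE 0.21), not passing without Cre control replicate 1 or knockout replicate 3. Without any 1 array, 4 to 6 of the list fell, 4 of them whichever array was left out (Zbtb16, Il4, Xcl1 and Il17rb). The list averaged -0.66, -0.84 and -0.29 on the knockout arrays and -0.05 to 0.07 on the controls.

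Of 13 Th2 genes Il4ra rose, Il4 and Il17rb fell and 10 did not pass. That was 7.69% higher and 15.4% lower, beside 10.0% and 4.52% of all genes tested. Gata3, the Th2 factor, differed by -0.23 (SE 0.08, adjusted p = 0.0795). The list median of 0.02 changed sign in 9 alternatives and has no direction. Of 12 follicular helper genes 1 rose and 1 fell (8.33% each, beside 10.0% and 4.52% of all genes tested). Bcl6, their lineage factor, rose by 0.31 (SE 0.09), lost without any 1 control array or knockout replicate 2 and with slide as a block. Its call was also lost with normexp (adjusted p = 0.176), in the authors' matrix (0.318) and with only the arrays compared (0.163). The inhibitory receptor gene Btla fell by 0.33 (SE 0.08), lost without Cre control replicate 2.

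Of 5 IL-17 receptor genes 3 rose and 1, Il17rb, fell, and of 13 Th17 genes 3 rose and none fell (median 0.65). The shares that rose were 60.0% and 23.1%, beside 10.0% of all genes tested. The block on slide gave 4 Th17 rises and 1 fall, with a median of 1.70. Il17rc, the IL-17 receptor chain that responds to IL-17A and IL-17F, read -3.29, -3.62 and -3.20 in controls and -0.40, -1.31 and 1.28 in the knockout. The arrays did not overlap, though the knockout ones spread over more than 2 units with replicate 3 on top, and the rise was 3.23 (SE 0.60, adjusted p = 0.00568). Il17re, the receptor chain for IL-17C, followed the same order at -2.45, -2.58 and -2.53 against 0.03, -0.77 and 1.46 (2.76, SE 0.55, adjusted p = 0.00797).

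Il1r1, the IL-1 receptor, read -4.42, -4.38 and -4.69 in controls, of which 1 was above background, and -2.14, -1.95 and -0.23 in the knockout. Its rise of 3.05 (SE 0.58, adjusted p = 0.00639) was 1.29 with normexp. The common chain gene Il17ra rose by 0.42 (SE 0.10, adjusted p = 0.0141), lost with slide as a block (adjusted p = 0.113), with normexp (0.0711), with only the arrays compared (0.129) and in the authors' matrix (0.0847). With slide as a block these differences were larger for Il17rc (4.65), Il17re (3.98) and Il1r1 (4.27). The cytokine gene Il17a was above background on none of the 6 arrays.

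For effector genes of Th1 cells 1 knockout array stood apart. Ifng read 1.28, 0.29 and 0.69 in controls and 1.58, 0.87 and 2.92 in the knockout, and its factor Tbx21 read 2.47, 2.33 and 2.38 against 2.03, 1.29 and 3.17. Knockout replicate 3 was the highest of the 6 arrays for both genes, replicate 2 was the lowest for Tbx21, and neither passed (adjusted p = 0.166 and 0.765). Of 15 Th1 genes 2 rose, the inhibitory receptor gene Havcr2 (3.49, SE 0.64, and 1.13 with normexp) and the homeobox gene Hlx (at least 1.82-fold, above background on no control array, and lost with slide as a block and with normexp at adjusted p values of 0.0734 and 0.113). Those 2 made 13.3% of the list, beside 10.0% of all genes tested. The list stood at 0.33, 0.01 and 1.10 on the 3 knockout arrays, and its median of 0.24 turned to -0.11 without replicate 3.

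Genes of antigen-experienced T cells showed the same array apart. Of 21, 5 rose and none fell (median 0.24), and 9 rose with slide as a block. The 5 made 23.8% of the list, beside 10.0% of all genes tested. The list mean was 0.11, -0.18 and 0.78 on the knockout arrays in order. Lgals3, which encodes galectin-3, read 1.08, 1.39 and 1.02 in controls and 2.42, 2.07 and 3.35 in the knockout, all above the controls with replicate 3 highest (1.45, SE 0.26, adjusted p = 0.00464). The membrane-binding protein gene Anxa2 rose by 0.98 (SE 0.15), Lgals1 (galectin-1) by 0.76 (SE 0.14) and the intermediate filament gene Vim by 0.53 (SE 0.12, lost with normexp at an adjusted p of 0.0526). Macrophages also express these genes, and their markers rose as given above.

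Of 17 early response genes 3 rose and none fell (17.6%, beside 10.0% of all genes tested, median 0.28). The block on slide left 2 rises, the median was 0.16, and on slide 2 alone none passed in limma (2 at an unadjusted p under 0.05). Nr4a1, the orphan nuclear receptor Nur77 that follows antigen receptor signals, read 4.27, 4.06 and 4.07 in controls and 5.27, 5.23 and 5.15 in the knockout. All 3 knockout arrays lay close together and nearly 1 unit above the highest control, with a rise of 1.09 (SE 0.10, adjusted p = 0.00025) that was 1.02 with slide as a block (adjusted p = 0.00666). Its relative Nr4a2 read -1.68, -2.62 and -1.97 against -0.76, -0.83 and -0.95 (1.24, SE 0.20, adjusted p = 0.00252). The stress factor gene Atf3 was at least 2.35-fold higher and above background on no control array, a call lost with slide as a block (adjusted p = 0.279), with only the arrays compared (0.103) and with normexp (0.225). Of the first-wave genes, Cd69, named after its value was seen, differed by 0.16 (SE 0.12).

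Of 10 measured heat shock chaperone genes 6 rose (60.0%, beside 10.0% of all genes tested) and none fell (median 0.48), while 3 had a negative difference that did not pass. A block on slide gave 7 rises (median 0.66), with normexp 4, with only the arrays compared 3 and on slide 2 alone 2. Hsph1, a co-chaperone of HSP70, read 2.43, 2.62 and 2.47 in controls and 3.92, 4.01 and 4.46 in the knockout, above every control by more than 1 unit (1.62, SE 0.21, adjusted p = 0.000917). Dnaja1, an HSP40 co-chaperone, read 5.67, 5.71 and 5.81 against 6.74, 6.69 and 7.12 (1.12, SE 0.14, adjusted p = 0.000809), again without overlap. Dnajb1 rose by 0.96 (SE 0.17) and the mitochondrial chaperonin gene Hspd1 by 0.40 (SE 0.08). Hspa1a, the inducible HSP70, was above background on 1 knockout array and no control array and was at least 1.87-fold higher, a call lost without Cre control replicate 2 or 3 or knockout replicate 3 and with normexp.

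Of 25 mitosis genes 21 rose (84.0%, beside 10.0% of all genes tested), none fell and 4 did not pass (median 1.30, and 0.70 with normexp). The same number rose with slide as a block (median 1.62), and 19 to 21 rose without any 1 array. Bub1, a kinase of the spindle checkpoint, read -3.88, -3.77 and -3.91 in controls and -2.53, -2.17 and -1.72 in the knockout. Every knockout array was more than 1 unit above every control (1.72, SE 0.21, adjusted p = 0.000778). Nusap1, a spindle protein gene, rose by 1.70 (SE 0.25), Nek2, a centrosomal kinase gene, by 1.55 (SE 0.22), and Birc5, which encodes survivin, by 1.39 (SE 0.20). With normexp the rises were 0.70 for Bub1, 0.64 for Nek2, 1.39 for Nusap1 and 1.47 for Birc5. The list averaged 0.96, 1.07 and 1.46 on the knockout arrays and -0.04 to 0.05 on controls.

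Of 28 replication genes 14 rose (50.0%, beside 10.0% of all genes tested), none fell and 14 did not pass, 4 of them with a negative difference (median 0.30), with 7 to 12 rising without any 1 array, 9 with slide as a block or normexp, 4 with only the arrays compared and 1 on slide 2 alone. Scaling by quantiles, or by the percentile over probes above background, gave 13 rises and 1 fall. E2f1, the factor that drives entry into S phase, read -1.26, -1.10 and -1.07 in controls and 0.04, 0.21 and 0.24 in the knockout. It was among the most even differences of the comparison, at 1.30 (SE 0.10, adjusted p = 7.02e-05) and 1.39 with slide as a block. Rrm2, a subunit of ribonucleotide reductase, rose by 1.28 (SE 0.26), cyclin E1 (Ccne1) by 0.50 (SE 0.09) and the replicative helicase component Gins1 by 0.53 (SE 0.10). Of 15 glycolysis genes 4 rose (26.7%, beside 10.0% of all genes tested) and none fell (median 0.13). They were led by Pgam1 (0.50, SE 0.09) and Hk2 (1.44, SE 0.29, and 0.49 with normexp). Ldha (0.32, SE 0.08) and Pkm (0.44, SE 0.13) were lost without Cre control replicate 1 or 3 or knockout replicate 1, and Pkm also without knockout replicate 2. Pgam1, Ldha and Pkm did not pass with slide as a block.

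Among 16 BCL2 family and death genes 3 rose and 1 fell (18.75% and 6.25%, beside 10.0% and 4.52% of all genes tested, median 0.11). Pmaip1, which encodes the killer protein NOXA, read -0.88, -1.19 and -1.06 in controls and 0.16, 0.51 and 1.51 in the knockout, without overlap and highest on replicate 3 (1.77, SE 0.36, adjusted p = 0.00832). Mcl1, the survival protein that NOXA binds, read 6.16, 6.30 and 6.23 against 6.70, 6.62 and 6.60 (0.41, SE 0.09, adjusted p = 0.0136). The death receptor gene Fas rose by 0.46 (SE 0.13), held only without Cre control replicate 2 among those fits, and its ligand gene Fasl fell by 0.47 (SE 0.10). Mcl1, Fas and Fasl did not pass with slide as a block (adjusted p = 0.145, 0.121 and 0.183). Bcl2 did not pass (0.16, SE 0.12). None of 18 interferon-stimulated genes passed in limma (5 at an unadjusted p under 0.05), although 16 had a negative difference (median -0.33). Over all 14675 genes tested 6405 had a negative difference.

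**Figure D3:**
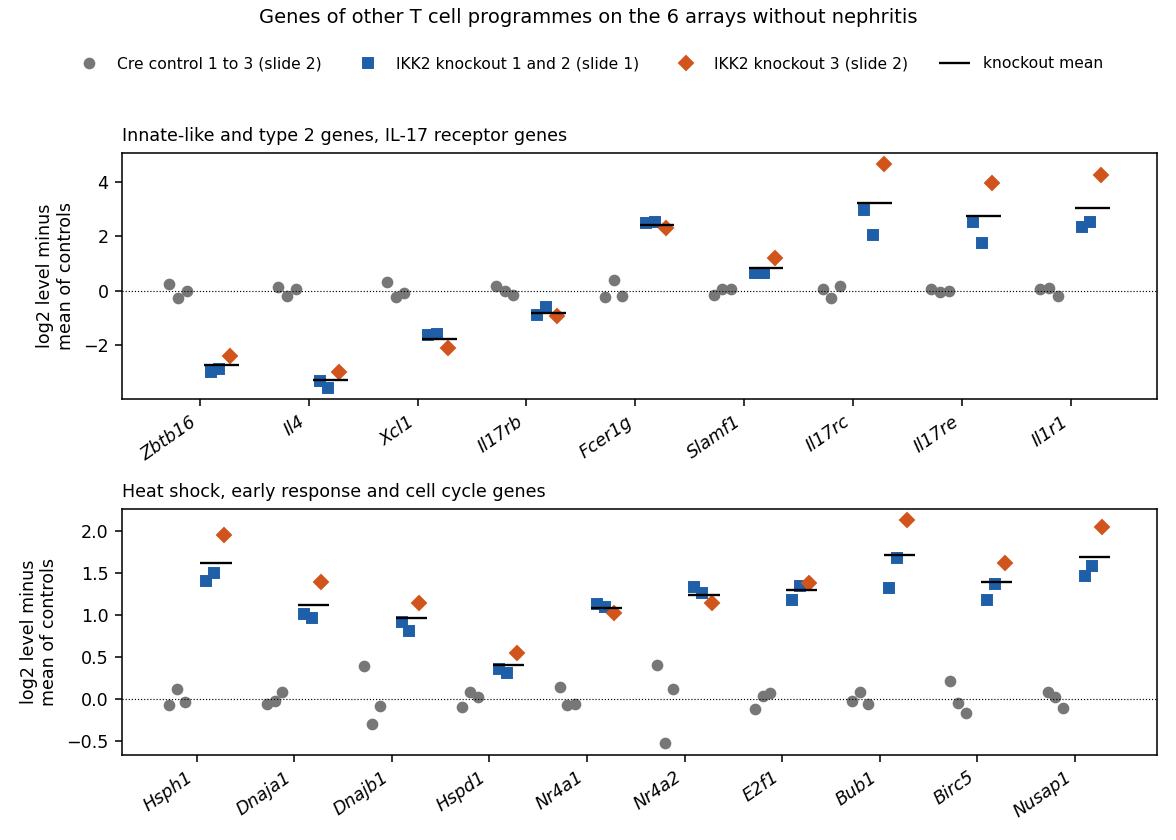
Levels of innate-like and IL-17 receptor genes (upper panel) and of chaperone, early response and cell division genes (lower panel) on each array, as log2 level minus the mean of the 3 Cre controls (y axis). Symbols are grey circles for controls, blue squares for knockout replicates 1 and 2, an orange diamond for replicate 3 and a black line for the knockout mean. Il4 lies at a mean of -3.29 and Zbtb16 at -2.74, and for Il17rc replicate 3 is the highest of the knockout arrays.

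The 12 largest falls included genes with no listed role here. Trpm6, a magnesium channel gene, read -1.33, -1.64 and -1.42 in controls and -4.79, -6.19 and -4.74 in the knockout, where it was above background on 1 array (-3.77, SE 0.35). Cryba4, a crystallin gene, read -0.25, -0.76 and -0.52 against -2.51, -2.93 and -2.72 and had the smallest adjusted p of the 12 (-2.21, SE 0.17, adjusted p = 7.02e-05). Tmem273 fell by 2.13 (SE 0.30), Gm4956 by 2.24 (SE 0.28) and the serine protease gene Hpn by 2.60 (SE 0.47), of which Hpn did not pass with slide as a block (-1.53, adjusted p = 0.121). Prg4, the proteoglycan lubricin, fell by 3.04 (SE 0.28), but another probe of that gene rose by 1.58. Rbm24, Prr15 and Majin were above background on no knockout array and were at least 3.03-fold, 1.94-fold and 1.10-fold lower. Prr15 did not pass with slide as a block (adjusted p = 0.0558), nor Majin with normexp (0.173). With normexp the differences were -1.32 for Trpm6, -1.61 for Prg4, -1.42 for Hpn and -1.30 for Cryba4, each smaller by over 1.5 times. Il4, Zbtb16 and Mmp9 complete the 12.

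Among the 12 largest rises 1 gene was well above background on all 6 arrays. Klk1b22, a kallikrein-related protease gene, read -1.73, -1.72 and -1.84 in controls and 2.10, 2.73 and 2.80 in the knockout. The controls lay within 0.12 of each other and the knockout arrays nearly 4 units higher or more (4.31, SE 0.48, adjusted p = 0.000439, and 4.57 with slide as a block). AA467197 was above background on no control array and at least 17.5-fold higher, most so on replicate 3 (0.82 against -1.51 and -1.19 on replicates 1 and 2). Most others are genes of macrophages or related cells: Clec4a4 (4.54, SE 1.11), the eosinophil-associated ribonuclease gene Ear2 (4.46, SE 0.59), the iron exporter gene Slc40a1 (4.43, SE 0.81), the adhesion molecule gene Vcam1 (4.42, SE 1.17), the complement gene C1qc (4.37, SE 1.004), Adgre1 (4.29, SE 0.65) and the pyrin gene Mefv (4.26, SE 0.66). Ear1 was at least 8.20-fold higher, and Adam23 (4.18, SE 0.91) and Stra6l (4.17, SE 0.93) made up the rest. With normexp the differences were 1.63 for Clec4a4, 2.72 for Ear2, 1.42 for Slc40a1, 2.25 for Vcam1, 1.53 for C1qc, 1.75 for Adgre1, 2.57 for Mefv, 1.47 for Adam23 and 1.70 for Stra6l, all smaller by over 1.5 times. Clec4a4, Slc40a1, Vcam1, C1qc, Adam23 and Stra6l did not pass with slide as a block (adjusted p = 0.0734 to 0.179). Calls for Clec4a4, Vcam1 and C1qc were lost without Cre control replicate 3, those of Clec4a4 and Vcam1 also without Cre control replicate 1 or knockout replicate 2, and that of Vcam1 without knockout replicate 3.

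Ikbkb lies on chromosome 8, and its neighbours were examined by position. Of the 20 nearest measured genes in the RefSeq order, 10 on each side, 5 rose, 1 fell and 14 did not pass (25.0% and 5.0%, beside 10.0% and 4.52% of all genes tested). Their median of 0.21 turned to -0.08 with slide as a block. The replication factor gene Gins4 read 1.44, 1.77 and 1.64 in controls and 2.67, 2.39 and 2.26 in the knockout (0.82, SE 0.11). Ckap2, a mitotic spindle gene, rose by 1.26 (SE 0.25) and Smim19 by 0.45 (SE 0.08, lost with slide as a block at an adjusted p of 0.0774), whereas the phosphate transporter gene Slc20a2 fell by 0.65 (SE 0.10). None of the 20 passed in the nephritic comparison in limma (6 at an unadjusted p under 0.05). Farther off, with 39 measured genes between it and Ikbkb, Tti2, which encodes a partner of the PI3K-related kinases and is named after its value was seen, read 3.46, 3.70 and 3.71 in controls and 1.98, 1.79 and 1.73 in the knockout. That fall of 1.79 (SE 0.09, adjusted p = 1.49e-06) was 1.38 on another probe, 1.89 with slide as a block and 1.69 with nephritis. Sycp1, a meiotic gene also named after its value was seen, had the smallest adjusted p (5.73e-07) and was at least 3.81-fold higher, above background on all knockout and no control arrays.

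The same genotype contrast in nephritic mice shares no array with this one, though both use 1 variance estimate per gene. All 6 of its arrays were on slide 1, whereas without nephritis the controls were on slide 2 and the knockout arrays on both slides. Part of a difference between the 2 contrasts can therefore be one of slide. There 378 genes passed (2.58%, 0.988% higher and 1.59% lower). Of the 1473 genes higher without nephritis 70.4% had a positive difference with nephritis (median 0.16), and of the 664 lower ones 69.6% had a negative difference (median -0.16), beside 44.5% positive and 55.5% negative over all genes (median -0.03). Falls seen in both conditions included Zbtb16 (-2.74 without and -3.11 with nephritis), Il4 (-3.29 and -2.07), Il7r (-1.27 and -0.93), Il2 (-1.67 and -1.64) and Tmem273 (-2.13 and -3.59), and rises included Il17rc (3.23 and 3.14) and Klk1b22 (4.31 and 3.70). The NF-kB target list had 9 falls with nephritis, the regulatory T cell list 7 and the innate-like list 4.

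Other groups moved without nephritis and did not pass with it. With nephritis no gene of the mitosis list passed in limma (8 at an unadjusted p under 0.05, median 0.35) and none of the chaperone list (1, median -0.06). Nor did any B cell (4, median 0.67), MHC class II (0, median 1.09) or macrophage marker (3, median 0.70). The difference between the 2 effects was tested itself and passed for 166 genes (1.13%), of which 141 also passed without nephritis. The signed value was higher without nephritis for 122 (0.831%) and lower for 44 (0.3%). With the percentile taken over probes above background on all arrays the split was 69 to 52, so that 57.0% instead of 73.5% were higher. The count depended on single arrays, from 9 without nephritic knockout replicate 3 to 391 without nephritic Cre control replicate 1, and was 38 with slide as a block.

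Chaperone genes were among those whose effects differed by this test. Hsph1 rose by 1.62 without nephritis and differed by -0.15 with it, an effect larger by 1.77 (adjusted p = 0.0314), and Dnaja1 rose by 1.12 against -0.01 (1.13, adjusted p = 0.0375). Ikbkg rose by 0.68 against -0.10 (0.78, adjusted p = 0.037). For mitosis genes the difference did not pass, for example for Bub1 (1.72 and 0.61, adjusted p = 0.0866), nor did it for Tnfaip3, which fell without nephritis and differed by 0.20 with it (adjusted p = 0.0739). Of 18 B cell markers 2 passed this test, among them Cd79b at 2.56 and 0.07 (adjusted p = 0.0217). None of the 10 MHC class II genes or 17 macrophage markers did, so for these a difference between the conditions was not shown.

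**Figure D4:**
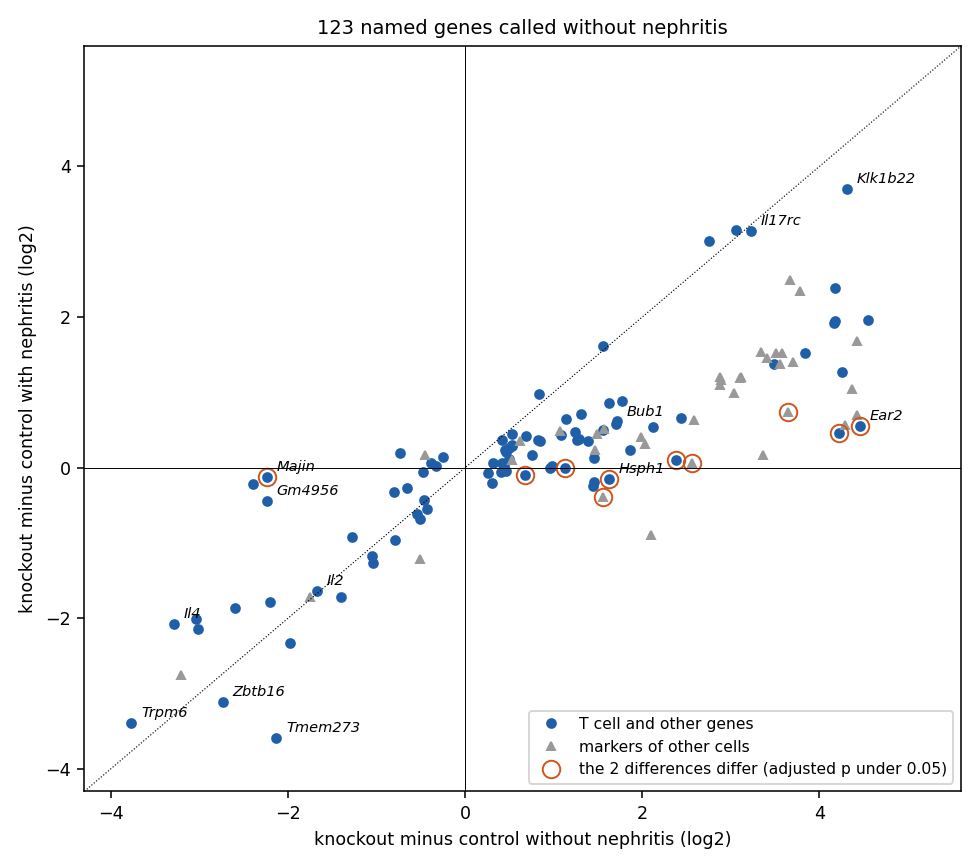
Differences of the 123 named genes that passed, IKK2 knockout minus Cre control in log2 units, without nephritis (x axis) and with nephritis (y axis). Each point is a gene, grey triangles are markers of other cells, and rings mark genes whose effects differed by the interaction test at an adjusted p under 0.05. Il4, Zbtb16 and Tmem273 lie low on both axes and Klk1b22 and Il17rc high on both, while Hsph1 lies at 1.62 and -0.15.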

How the data were processed

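Transcripts were measured in CD4+ spleen cells on 16 1-colour Agilent arrays, 6 of them compared here. The authors deposited scanner output whose values are linear spot intensity, background-subtracted and detrended per the file headers by Feature Extraction 10.7.3.1 (10.5 per the submitters' processing notes). The authors also deposited a log2 matrix of the same arrays, which the sources used here do not describe further and which served as an alternative.

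Control spots (62976 spots, 59305 non-control) and 126 to 172 outlier spots on each array were dropped. None was saturated. Repeated spots were averaged, and log2 processed intensity minus each array's 75th percentile was used. Symbols came through RefSeq (GRCm38.p6, whereas headers name mm9), used for names, gene order and promoter windows only: 27235 probes had 1 symbol and 28446 none. A probe was kept if at least 2 arrays had it well above background (34938 probes), and the brightest on average stood for its gene (14675 genes). Of 44 named genes with further probes 6 had a probe of opposite sign, for 3 of them (Nfkbib, Prg4 and Ube2v1) at an unadjusted p under 0.05.

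Group means over all 16 arrays were fitted with limma 3.58.1 (R 4.3.3) and adjusted by Benjamini-Hochberg, two-sided. All p values are from limma. Tested on simulated data, 29.9%, 70.1% and 90.9% of differences of 0.5, 1 and 2 were called, and 0.055% of unchanged genes. The simulated noise was independent between genes and arrays, with no slide effect and no shift in cell content. These rates therefore do not measure errors from slide or cell content. A gene above background on no array of a group has only a bound: the brighter group's mean against, per array, the higher of the gene's own signal and the lowest signal well above background. Tables and plots used Python 3.11.15.

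The comparison, its 34 gene lists and the tests were chosen with earlier results of these data known. Named genes are the IKK complex, up to 6 per list (4 by smallest p, 2 first listed), 5 pathway lists in full, the 12 largest differences per direction without overlap and bright in 1 group, and up to 4 neighbours of Ikbkb. Genes outside it are said to be so, and a few genes it covers are not reported here. Alternatives were slide as a block, slide 2 alone, replicate number as a block, only the arrays compared, other scalings and background corrections, no filter, mean of probes, a B cell marker covariate and leaving out each array. The kB consensus was searched in RefSeq promoters after a narrower spelling had been tried. For normexp the median spot signal was used with an offset of 50.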

Additional observations from a re-analysis of the deposited data

Results flagged for a closer look

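The IKK2 effect without nephritis differed from that with nephritis, by limma's interaction test, for 14 genes reported here, of the lists or of the largest differences. The first value is the knockout difference without nephritis minus that with it. It is signed, so a lower value can be a smaller rise or a deeper fall. No cause was tested.

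Higher in signed value without nephritis were genes of B cells, Cd79b (2.49, adjusted p = 0.0217) and Tnfrsf13c (2.29, adjusted p = 0.0398). The ribonuclease genes Ear1 (3.76, adjusted p = 0.037) and Ear2 (3.91, adjusted p = 0.0495) and the lectin-like receptor gene Klre1 (1.94, adjusted p = 0.0434) were in the same class. Ear1 was above background on no control array without nephritis, so its value is not a measured size. So were the chaperone genes Hsph1 (1.77, adjusted p = 0.0314) and Dnaja1 (1.13, adjusted p = 0.0375) and the NEMO gene Ikbkg (0.78, adjusted p = 0.037). Nxpe4 was at least 3.51-fold higher without nephritis and differed by 0.70 with it (2.55, adjusted p = 0.0132). Il1rl1, the IL-33 receptor, differed by 0.04 without nephritis and fell by 2.12 with it (2.16, adjusted p = 0.0206).

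Lower in signed value without nephritis were Majin (-2.11, adjusted p = 0.0435), the activation marker Cd69 (-0.94, adjusted p = 0.0381), the phosphatase gene Dusp1 (-1.42, adjusted p = 0.0398) and the death gene Bbc3, which encodes PUMA (-1.33, adjusted p = 0.0434). Majin fell without nephritis, where no knockout array was above background, so its value is not a measured size. With normexp that fall was -0.29. Cd69 differed by 0.16 without and rose by 1.10 with nephritis, and Dusp1 differed by -0.41 and rose by 1.02. Nxpe4, Il1rl1, Cd69, Dusp1 and Bbc3 were named after their values were seen.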

How the results depend on the processing

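The 2137 genes without nephritis became 752 with slide as a block, 201 on slide 2 alone, 920 with only the arrays compared, 1361 with normexp and 0 with the mean B cell marker level in the model (limma, 1176 at an unadjusted p under 0.05), and 1264 to 2324 without any 1 array. Other scalings, no filter, mean of probes and the authors' matrix gave 1455 to 2464. Same-numbered arrays correlated at -0.09 to 0.11 in their deviations, so the numbers pair nothing, and the replicate block gave 1954.

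The 166 genes whose effects differed became 38 with slide as a block, 8 with the replicate block, 11 with only the arrays compared, 17 with normexp, 31 in the authors' matrix, 10 with no filter and 0 with that covariate in limma (1903 at an unadjusted p under 0.05), and 9 to 391 without any 1 array. It was 32, 59 and 13 without Cre control replicate 1, 2 or 3, 69, 35 and 349 without knockout replicate 1, 2 or 3, 15 and 30 without nephritic Cre control replicate 2 or 3, and 21 without nephritic knockout replicate 2.

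Of 123 named genes that passed, 60 kept their call with slide as a block, 30 on slide 2 alone, 87 with only the arrays compared, 103 with normexp and 98 to 106 without any 1 array, and none with the covariate, where 27 differences changed sign. These were Adam23 (-0.54), C1qb (-0.030), C1qc (-1.33), Cd209a (-1.62), Cd40 (-1.90), Cd74 (-0.43), Cd8a (-0.81), Cd8b1 (-0.083), Clec4a4 (-1.25), Fcer1g (-0.47), Flt3 (-0.63), Gp5 (-1.04), H2-Aa (-1.66), H2-Ab1 (-1.56), H2-DMb1 (-0.43), H2-Eb1 (-1.33), Itgax (-0.48), Itgb3 (0.00041), Klre1 (-0.51), Ltbr (-0.96), Lyz2 (-0.082), Ncr1 (-0.39), S100a8 (-3.69), S100a9 (-3.44), Stra6l (-0.91), Tnfrsf13c (-0.33) and Vcam1 (-1.85). The covariate separates the groups almost as the genotype does, and the cause of these changes was not tested. With 3 arrays a group and dim probes near background, small differences could not be resolved.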
